A study of Homo sapiens with 16 samples.

Results

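Fibronectin, the lysyl oxidases and the matricellular proteins build and tune the matrix around a cell. Their transcripts were described here as 8 genes of the 58735 in the deposited count table: FN1, FBN1, LOX, LOXL2, THBS1, TNC, SPARC and TGFBI. They were picked by gene name as matrix proteins other than collagens and as crosslinking enzymes, and all 8 passed the filter on low counts that left 17647 genes for testing. The study asked what inhibition of YES1, a Src family kinase, does to triple-negative breast cancer cells, in connection with cell division and taxane treatment. It sequenced polyadenylated RNA of 16 libraries from human MDA-MB-231 cells and SUM159 cells (titled SUM159PT). The 4 groups were MDA-MB-231 with YES1i, MDA-MB-231 with DMSO, SUM159 with YES1i and SUM159 with DMSO, with 4 libraries each. YES1i is CH6953755, given at 8 uM for 48 h, and DMSO is its solvent. All groups carry the genotype label WT, so that no group has a labelled edit. MDA-MB-231 was grown in RPMI and SUM159 in Ham's F12, so line and medium cannot be told apart. The series text calls the libraries of a group technical replicates. The p-values therefore measure library-to-library spread, and separate cultures may vary more.

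Cells assemble secreted fibronectin into fibrils through integrins, and later matrix proteins are laid down on that scaffold. Fibrillin forms microfibrils that hold latent TGF-beta, and lysyl oxidases oxidise lysines of collagen and elastin so that fibres become crosslinked. Matricellular proteins such as thrombospondin, tenascin and SPARC add little structure themselves but alter adhesion and growth factor activity, and in breast tumours much of this matrix comes from fibroblasts and part from the tumour cells.

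The sequences upstream of the 5 genes that moved the same way in both lines, without overlap between YES1i and DMSO libraries, show what lies before their starts. The same held for 22.3% of all tested genes. The printed runs are RefSeq sequences of GRCh38.p14, written 5′ to 3′ on the strand of the gene. FN1 is chr2:215436173-215436318 (minus strand), LOX is chr5:122078361-122078509 (minus strand), THBS1 is chr15:39580829-39581078 (plus strand), TNC is chr9:115118258-115118407 (minus strand) and TGFBI is chr5:136028738-136028894 (plus strand). Each run begins 250 bases before the RefSeq start and ends before the first base of the gene in the count table. Capitals mark a match to TGACGTCA (the CRE motif) in FN1, to CAGACA on the other strand (SMAD) in LOX and to GGAATG (TEAD) in THBS1.
FN1: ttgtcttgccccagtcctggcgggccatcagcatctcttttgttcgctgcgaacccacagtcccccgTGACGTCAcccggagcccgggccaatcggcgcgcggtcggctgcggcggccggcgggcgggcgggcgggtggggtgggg
LOX: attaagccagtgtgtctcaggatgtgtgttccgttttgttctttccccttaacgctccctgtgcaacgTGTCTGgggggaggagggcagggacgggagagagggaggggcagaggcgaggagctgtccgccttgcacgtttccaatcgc
THBS1: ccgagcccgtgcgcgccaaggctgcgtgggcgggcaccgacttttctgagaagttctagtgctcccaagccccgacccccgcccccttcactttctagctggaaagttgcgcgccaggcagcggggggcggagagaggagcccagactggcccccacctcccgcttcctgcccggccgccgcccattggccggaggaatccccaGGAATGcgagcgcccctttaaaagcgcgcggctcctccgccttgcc
TNC: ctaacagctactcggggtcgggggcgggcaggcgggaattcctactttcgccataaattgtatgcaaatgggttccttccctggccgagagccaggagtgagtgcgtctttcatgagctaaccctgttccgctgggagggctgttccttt
TGFBI: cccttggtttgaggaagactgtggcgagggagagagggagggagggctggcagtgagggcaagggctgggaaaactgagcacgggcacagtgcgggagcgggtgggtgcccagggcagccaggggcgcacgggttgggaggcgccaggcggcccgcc

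Windows of 250 bases before the RefSeq start were at hand for 7 of the 8 genes. They were searched on both strands for CRE, SMAD and TEAD letters as above and for AP-1 (TGANTCA), E-box (CACGTG) and TATAAA (the TATA box). The CRE letters stood at position -183 in FN1 and are held by 1.65% of all 35116 windows of that length. SMAD letters stood at position -182 in LOX and at -71 in TNC, downstream of the stretch printed, and are held by 13.6% of windows. TEAD letters stood at -46 in THBS1, -17 in SPARC and -58 in FBN1, and are held by 11.9% of windows. No window held more than 1 match, so no matches overlapped, and the TGFBI window held none. AP-1, E-box and TATA letters, held by 6.57%, 6.34% and 10.7% of windows, were in none of the 7. These matches describe letters and not sites of binding.

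Total counts ran from 15876171 to 36261542 per library, and a count of 0 would allow a level of up to 0.194 CPM (counts scaled to a common library size) in the shallowest library at 3 counts. Of the receptors behind the triple-negative label, ESR1 was at no more than 0.734 CPM and PGR at no more than 0.114 CPM in any library. ERBB2 averaged 108 to 118 CPM over the groups, a level that alone does not check the label. The transcript of YES1 averaged 93.3 CPM with YES1i and 94.3 CPM with DMSO in MDA-MB-231, and 88.9 CPM with YES1i and 103 CPM with DMSO in SUM159. The inhibitor acts on the protein, so these levels do not check the labels. Mitochondrial ribosomal RNA took a larger share of counts in every YES1i library, at 1.29 to 1.39% in MDA-MB-231 and 1.28 to 1.48% in SUM159. The DMSO libraries held 0.619 to 0.678% in MDA-MB-231 and 0.658 to 0.810% in SUM159. Leaving all mitochondrially encoded genes out of the counts and library sizes changed no call of the 8 genes.

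The summed level of 9 fibroblast and pericyte markers in MDA-MB-231 was 57.7 to 62.2 CPM with YES1i and 71.6 to 75.2 CPM with DMSO. The fibroblast gene DCN was at 0 in all 8 of those libraries. Others of the list were present, with COL1A2 at a mean of 28.8 CPM with YES1i and 30.6 CPM with DMSO. PDGFRB averaged 13.2 CPM with YES1i and 25.5 CPM with DMSO. In SUM159 the sum of the list was 754.6 to 921.6 CPM with YES1i and 740.6 to 873.0 CPM with DMSO, most of it COL1A1. DCN averaged 19.0 CPM with YES1i and 8.59 CPM with DMSO there. The 5 endothelial markers summed to 14.8 to 18.5 CPM with YES1i and 6.26 to 9.16 CPM with DMSO in MDA-MB-231, and to 18.3 to 20.1 CPM with YES1i and 10.0 to 11.9 CPM with DMSO in SUM159. In SUM159 CDH5 was at 0, and KDR averaged 17.8 CPM with YES1i and 9.70 CPM with DMSO. The 6 leukocyte markers summed to no more than 14.6 CPM and the 3 adipocyte markers to no more than 6.14 CPM. ADIPOQ was at 0 in all 16 libraries. PLIN1 averaged 1.44 CPM with YES1i and 0.206 CPM with DMSO in MDA-MB-231. In SUM159 it averaged 3.82 CPM with YES1i and 0.604 CPM with DMSO. Endothelial, leukocyte and adipocyte sums were higher with YES1i in both lines, and their part in the results was not tested. In these bulk libraries, fewer cells of a type and less RNA per cell cannot be told apart.

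The genes differed widely in level, and each line had its own leading transcripts. On the TPM scale, which adjusts for gene length and depth, TGFBI led in SUM159 at 3950 ± 154 TPM with YES1i and 1601 ± 73.0 TPM with DMSO (SD, n = 4 each). Among 19951 protein-coding genes that put TGFBI at rank 25 with YES1i and rank 53 with DMSO. FN1 followed with 1447 ± 15.7 TPM with YES1i and 1152 ± 59.5 TPM with DMSO, and SPARC with 915 ± 42.4 TPM with YES1i and 914 ± 28.1 TPM with DMSO. LOXL2 and THBS1 came next in SUM159 with YES1i, at 374 ± 42.6 and 343 ± 10.9 TPM, and the libraries of these neighbours overlapped. With DMSO, THBS1 stood at 589 ± 29.1 TPM, above LOXL2 at 283 ± 28.2 and TNC at 281 ± 17.6 TPM, which overlapped each other. TNC had 217 ± 17.7 TPM with YES1i. LOX and FBN1 were the lowest, LOX at 51.1 ± 1.37 TPM with YES1i and 19.4 ± 1.77 TPM with DMSO, and FBN1 at 7.03 ± 0.682 TPM with YES1i and 6.12 ± 0.332 TPM with DMSO.

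In MDA-MB-231 the leading transcript differed between the treatments. FN1 led with YES1i at 558 ± 45.3 TPM, against 137 ± 6.54 TPM with DMSO, where it was the third. THBS1 was second with YES1i at 395 ± 13.2 TPM and led with DMSO at 746 ± 15.7 TPM. These values made FN1 40.1% of the summed TPM of the 8 genes with YES1i and 10.3% with DMSO, while THBS1 made 28.4% with YES1i and 56.2% with DMSO. LOXL2 followed at 277 ± 13.0 TPM with YES1i and 305 ± 8.24 TPM with DMSO, then TGFBI at 81.5 ± 2.31 TPM with YES1i and 58.3 ± 0.482 TPM with DMSO, and LOX at 54.2 ± 2.65 TPM with YES1i and 39.7 ± 1.44 TPM with DMSO. FBN1 and TNC changed places, with FBN1 at 15.9 ± 1.53 and TNC at 7.86 ± 0.501 TPM with YES1i, and FBN1 at 12.9 ± 0.655 and TNC at 26.7 ± 0.472 TPM with DMSO. SPARC was the lowest at 0.430 ± 0.0481 TPM with YES1i and 1.27 ± 0.0814 TPM with DMSO. No neighbours in these MDA-MB-231 orders overlapped between libraries.

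**Figure D1:**
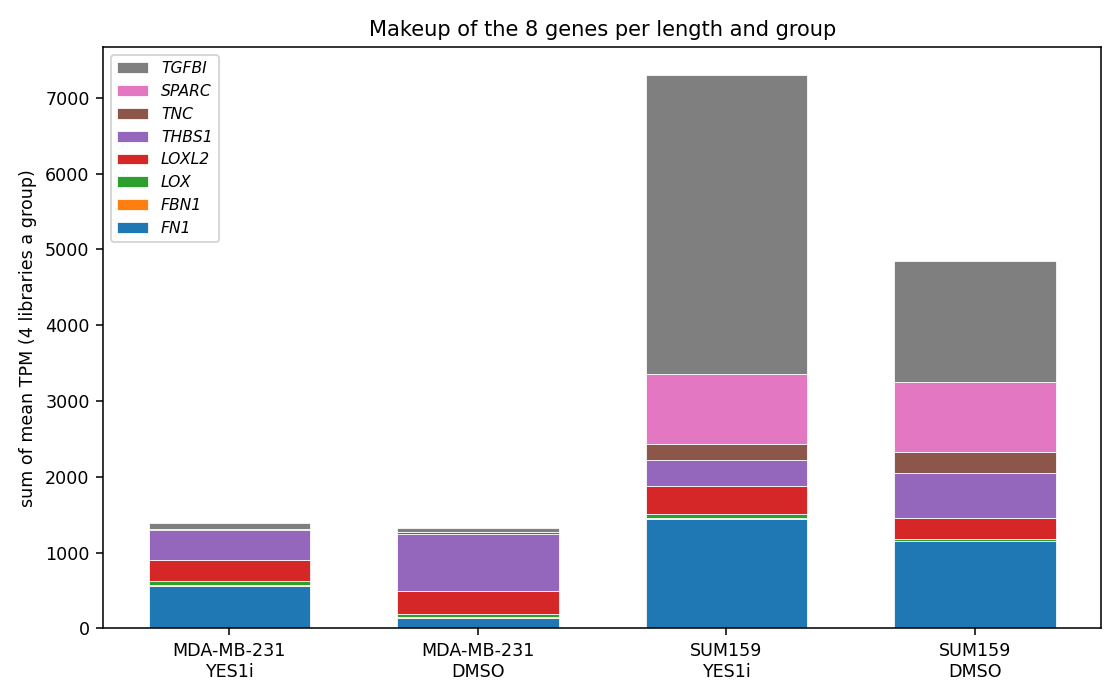
Summed mean TPM of the 8 genes in each group (vertical axis, 4 libraries a group), each bar divided by gene. The sum was 1390 ± 63.1 TPM with YES1i and 1328 ± 19.4 TPM with DMSO in MDA-MB-231, and 7303 ± 230 TPM with YES1i and 4846 ± 222 TPM with DMSO in SUM159, where TGFBI made 54.1% of it with YES1i and 33.0% with DMSO.

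In MDA-MB-231 the summed TPM with YES1i and DMSO differed by no more than the SD of the YES1i libraries, while the order of the genes within it differed. In SUM159 the added level was mostly TGFBI. TPM divides by the deposited gene lengths. For the 8 genes these equal the merged exon bases of all their GENCODE 29 transcripts, 17315 for FN1. Order, shares and sums in TPM depend on those lengths, and the transcripts in use were not tested. As a share of all counts, without regard to length, the 8 genes took 0.445 ± 0.0205% with YES1i and 0.326 ± 0.00718% with DMSO in MDA-MB-231. In SUM159 they took 1.90 ± 0.0278% with YES1i and 1.29 ± 0.0528% with DMSO.

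With YES1i in MDA-MB-231, FN1, FBN1, LOX and TGFBI rose, THBS1, TNC and SPARC fell, and LOXL2 was not called. With YES1i in SUM159, the same genes FN1, FBN1, LOX and TGFBI rose together with LOXL2, THBS1 and TNC fell, and SPARC was not called. That is 4 genes higher and 3 lower in MDA-MB-231, where edgeR's quasi-likelihood test at an adjusted p under 0.05 called 48.9% of all tested genes, 26.8% higher and 22.1% lower. In SUM159 it is 5 higher and 2 lower, where 51.6% of all genes were called, 25.1% higher and 26.5% lower. The direction split of all called genes in SUM159 depends on scaling, with 48.7% of calls higher under TMM scaling and 63.4% under upper quartile scaling. The median log2 fold change of the 8 genes was 0.15 in MDA-MB-231 and 0.29 in SUM159, and that of all tested genes was 0.03 in MDA-MB-231 and 0.02 in SUM159. YES1i and DMSO libraries did not overlap for 7 of the genes in MDA-MB-231, where 47.3% of all tested genes did not, and for 6 in SUM159, where 43.3% of all tested genes did not.

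**Figure D2:**
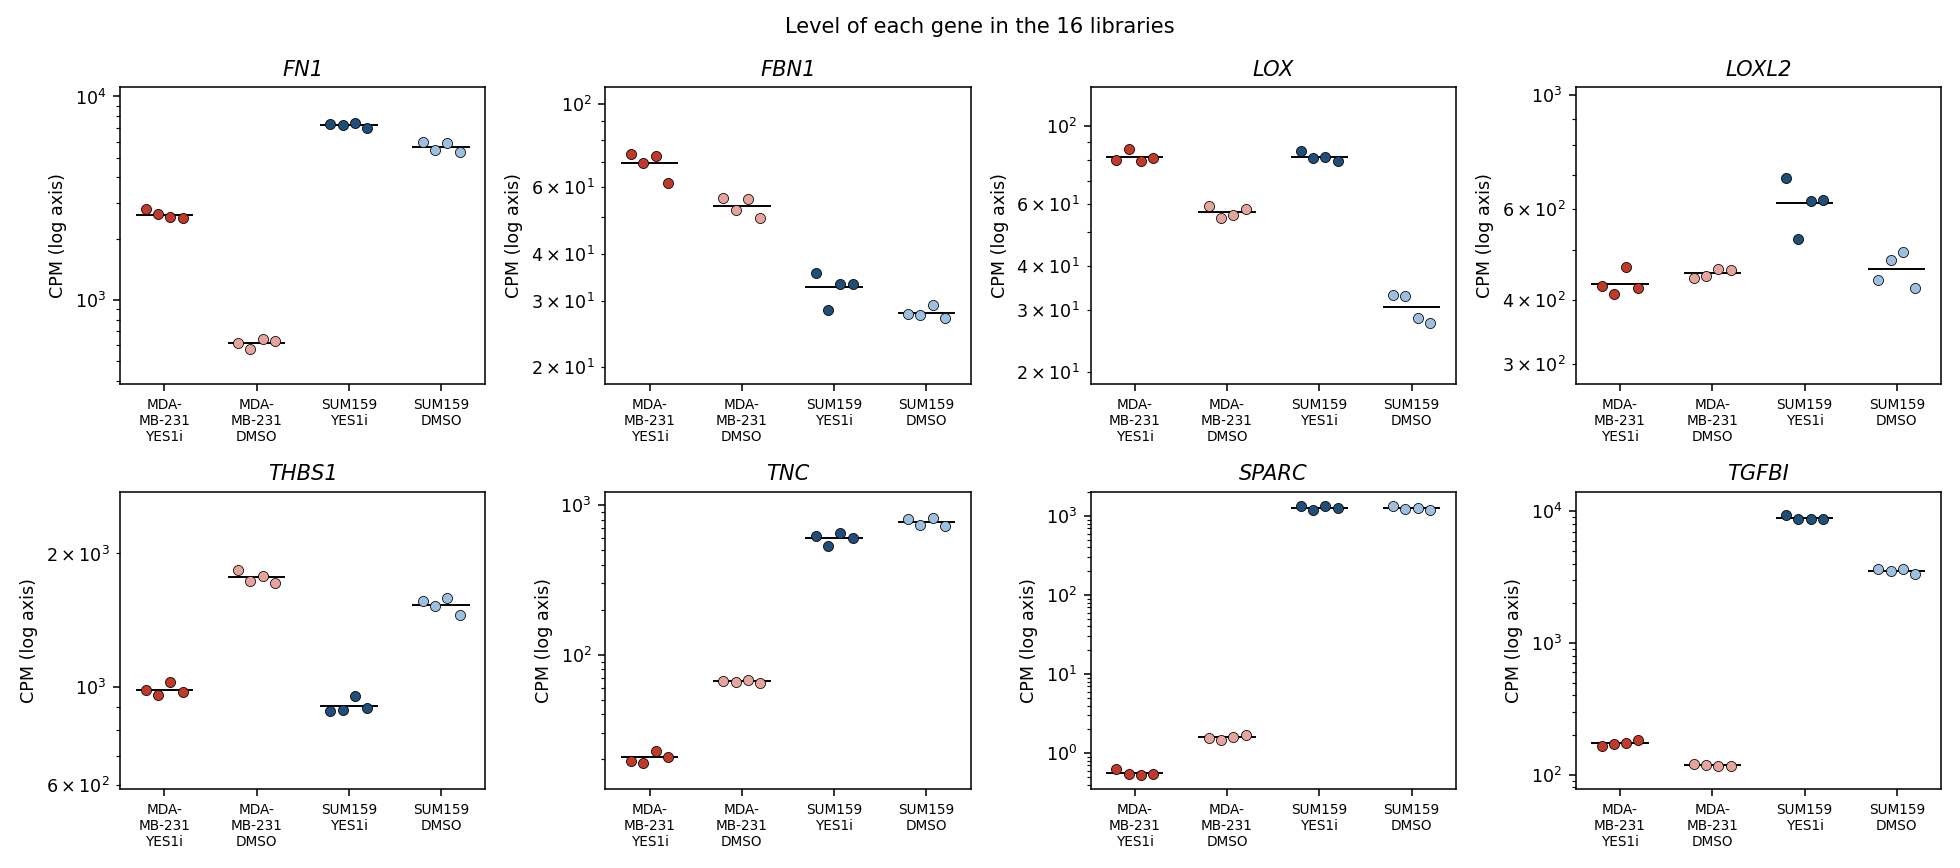
Level of each gene in CPM on a log axis, with a point per library and a line at the mean of the 4 libraries of a group. FN1 with YES1i sat at 2515 to 2803 CPM in MDA-MB-231, above DMSO at 576.3 to 641.6 CPM, and SPARC in MDA-MB-231 lay below 2 CPM in every library.

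FN1 (ENSG00000115414, hg38 chromosome 2, 215360440 to 215436172, minus strand) encodes fibronectin. In MDA-MB-231 it had 2803, 2642, 2542 and 2515 CPM with YES1i, against 613.7, 576.3, 641.6 and 627.0 CPM with DMSO. Every YES1i library was far above every DMSO library. The means were 2626 ± 130.0 CPM with YES1i and 615 ± 28.0 CPM with DMSO (SD, n = 4 each), a log2 fold change of 2.09 (standard error 0.05, edgeR's adjusted p = 1.39e-22), or 4.27-fold higher. That was the rise ranked 221 of the 17647 tested genes. In SUM159, FN1 had 7316, 7203, 7398 and 7031 CPM with YES1i, against 5977, 5434, 5902 and 5333 CPM with DMSO. The groups were again apart, by less, with a log2 fold change of 0.35 (standard error 0.05, edgeR's adjusted p = 1.25e-06). The difference between those changes was 1.74 on the log2 scale (standard error 0.07, edgeR's adjusted p = 2.94e-17), larger in MDA-MB-231.

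FBN1 (ENSG00000166147, chromosome 15, 48408306 to 48645849, minus strand) encodes a fibrillin, the core of microfibrils. FBN1 levels in MDA-MB-231 were 73.66, 69.79, 72.60 and 61.77 CPM with YES1i, against 56.20, 52.08, 55.96 and 49.69 CPM with DMSO. The groups did not overlap, and the log2 fold change was 0.38 (standard error 0.07, edgeR's adjusted p = 3.52e-05). FBN1 levels in SUM159 were 35.53, 28.30, 33.33 and 33.31 CPM with YES1i, against 27.68, 27.56, 29.22 and 27.02 CPM with DMSO. The lowest YES1i library lay within the DMSO range there, and the log2 fold change was 0.22 (standard error 0.07, edgeR's adjusted p = 0.0117). A difference in response between lines was not called, at 0.15 with a 95% interval from -0.053 to 0.36 (edgeR adjusted p = 0.270).

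LOX (ENSG00000113083, chromosome 5, 122063195 to 122078360, minus strand) encodes lysyl oxidase. In MDA-MB-231 it had 80.19, 86.10, 79.70 and 81.13 CPM with YES1i, against 59.40, 54.69, 55.77 and 58.12 CPM with DMSO. All YES1i libraries were higher, with a log2 fold change of 0.52 (standard error 0.06, edgeR's adjusted p = 1.86e-08). In SUM159 it had 85.29, 81.41, 81.74 and 79.39 CPM with YES1i, against 33.12, 32.92, 28.39 and 27.61 CPM with DMSO. The separation was wider, at 2.68-fold higher or 1.42 on the log2 scale (standard error 0.06, edgeR's adjusted p = 3.71e-17). The change was smaller in MDA-MB-231, by a difference of -0.90 (standard error 0.09, edgeR's adjusted p = 1.82e-09). LOX thus stood at 81.8 ± 2.94 CPM in MDA-MB-231 and 82.0 ± 2.45 CPM in SUM159 with YES1i, and with DMSO at 57.0 ± 2.15 CPM in MDA-MB-231 and 30.5 ± 2.92 CPM in SUM159. LOX shares 138 exon bases of 5547 with SRFBP1 on the opposite strand, whose total count was 19.5% of its own, and whether counting used strand is not given in the sources used here.

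LOXL2 (ENSG00000134013, chromosome 8, 23297189 to 23425328, minus strand) encodes a relative of LOX that crosslinks collagens, among them collagens of basement membranes. LOXL2 levels in MDA-MB-231 were 425.5, 410.2, 462.5 and 420.9 CPM with YES1i, against 440.9, 445.3, 458.3 and 457.3 CPM with DMSO. The groups overlapped, and the log2 fold change was -0.068 with a 95% interval from -0.20 to 0.063 (edgeR adjusted p = 0.407). That call depends on the samples fitted, since a fit of these MDA-MB-231 libraries alone gave -0.11 (edgeR adjusted p = 0.0157). LOXL2 levels in SUM159 were 691.0, 524.8, 622.3 and 625.8 CPM with YES1i, against 437.4, 477.0, 495.4 and 422.2 CPM with DMSO. All YES1i libraries were higher there, with a log2 fold change of 0.43 (standard error 0.06, edgeR's adjusted p = 2.30e-06). The change in MDA-MB-231 minus that in SUM159 was -0.49 (standard error 0.09, edgeR's adjusted p = 9.08e-05). LOXL2 shares 120 exon bases of 5707 with ENTPD4 on the same strand, whose total count was 17.1% of its own.

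**Figure D3:**
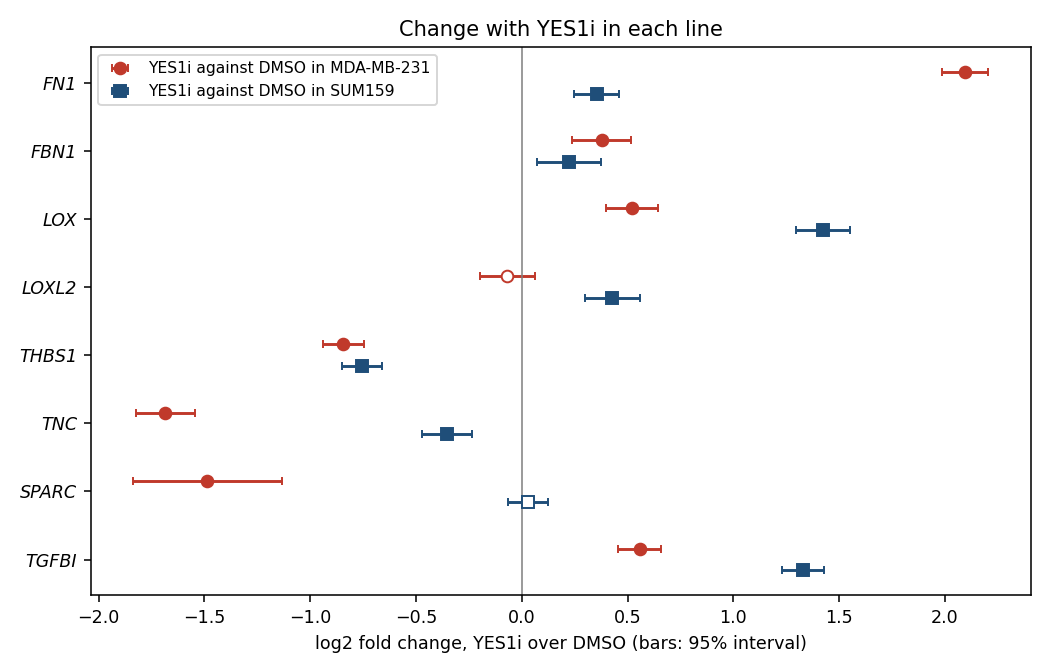
Log2 fold change of each gene, YES1i over DMSO (horizontal axis), in MDA-MB-231 (circles) and SUM159 (squares), with bars for the 95% interval and open symbols where edgeR's adjusted p was 0.05 or more. LOXL2 in MDA-MB-231 at -0.068 and SPARC in SUM159 at 0.028 are the open symbols, and FN1 in MDA-MB-231 at 2.09 is the farthest to the right.

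THBS1 (ENSG00000137801, chromosome 15, 39581079 to 39599466, plus strand) encodes a thrombospondin that binds CD47 and CD36 and can activate latent TGF-beta. In MDA-MB-231 it had 983.7, 957.7, 1025 and 974.1 CPM with YES1i, against 1836, 1733, 1783 and 1720 CPM with DMSO. In SUM159 it had 883.0, 887.8, 956.0 and 898.0 CPM with YES1i, against 1562, 1520, 1587 and 1451 CPM with DMSO. All YES1i libraries were lower in both lines. THBS1 was 1.79-fold lower in MDA-MB-231, a log2 fold change of -0.84 (standard error 0.05, edgeR's adjusted p = 4.37e-15). It was 1.69-fold lower in SUM159, a log2 fold change of -0.76 (standard error 0.05, edgeR's adjusted p = 7.22e-14). The difference between these changes was -0.088 with a 95% interval from -0.22 to 0.047 (edgeR adjusted p = 0.343). It passed the threshold, at -0.20 (adjusted p = 0.0147), under edgeR with upper quartile scaling and, at -0.14 (adjusted p = 0.0451), in DESeq2.

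TNC (ENSG00000041982, chromosome 9, 115019578 to 115118257, minus strand) encodes a tenascin, which modulates adhesion to fibronectin. TNC levels in MDA-MB-231 were 19.66, 19.05, 22.94 and 20.86 CPM with YES1i, against 67.29, 65.37, 68.13 and 64.96 CPM with DMSO. The groups were far apart, with TNC 3.21-fold lower, a log2 fold change of -1.68 (standard error 0.07, edgeR's adjusted p = 4.25e-18). That was the fall ranked 158 of the 17647 tested genes. TNC levels in SUM159 were 618.1, 534.3, 654.8 and 604.7 CPM with YES1i, against 806.8, 736.1, 816.5 and 719.2 CPM with DMSO. The groups were apart there as well, with a log2 fold change of -0.35 (standard error 0.06, edgeR's adjusted p = 8.62e-06). The change in MDA-MB-231 lay below that in SUM159, by a difference of -1.33 (standard error 0.09, edgeR's adjusted p = 1.42e-12).

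SPARC (ENSG00000113140, chromosome 5, 151661096 to 151687165, minus strand) encodes a collagen-binding matricellular protein, also called osteonectin. In MDA-MB-231 it was low, with 0.631, 0.548, 0.528 and 0.550 CPM with YES1i, against 1.55, 1.47, 1.62 and 1.69 CPM with DMSO. These levels rest on 9 to 11 reads per YES1i library and 27 to 37 reads per DMSO library. The groups did not overlap, and the log2 fold change was -1.49 (standard error 0.17, edgeR's adjusted p = 1.94e-08). In SUM159 it had 1318, 1203, 1345 and 1243 CPM with YES1i, against 1318, 1242, 1252 and 1199 CPM with DMSO. Those groups overlapped, and the log2 fold change was 0.028 with a 95% interval from -0.067 to 0.12 (edgeR adjusted p = 0.644). Upper quartile scaling, which raised the median of all genes in SUM159 to 0.14 on the log2 scale, gave 0.15 for SPARC (edgeR adjusted p = 0.00557). The change in MDA-MB-231 minus that in SUM159 was -1.51 (standard error 0.18, edgeR's adjusted p = 9.09e-08).

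TGFBI (ENSG00000120708, chromosome 5, 136028895 to 136063818, plus strand) encodes an adhesion protein named for its induction by TGF-beta, which binds integrins and collagens. TGFBI levels in MDA-MB-231 were 165.5, 170.7, 173.0 and 183.6 CPM with YES1i, against 119.9, 117.6, 116.4 and 116.9 CPM with DMSO. All YES1i libraries were higher, with a log2 fold change of 0.56 (standard error 0.05, edgeR's adjusted p = 9.87e-11). TGFBI levels in SUM159 were 9389, 8731, 8732 and 8787 CPM with YES1i, against 3649, 3545, 3635 and 3356 CPM with DMSO. That is 2.51-fold higher, a log2 fold change of 1.33 (standard error 0.05, edgeR's adjusted p = 6.74e-19). The rise was smaller in MDA-MB-231, by a difference of -0.77 (standard error 0.07, edgeR's adjusted p = 4.24e-10). Replicate 1 with YES1i stood above the other 3, and without it the SUM159 log2 fold change was 1.31.

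Over the 8 genes, the log2 fold change with YES1i was higher in MDA-MB-231 than in SUM159 for FN1 and lower for LOX, LOXL2, TNC, SPARC and TGFBI. That is 1 gene higher and 5 lower in the test of the difference, where 31.1% of all tested genes were called, 19.1% higher and 12.1% lower. Of those 5, LOX and TGFBI rose in both lines and less in MDA-MB-231, and TNC fell in both and more in MDA-MB-231. LOXL2 was called in SUM159 alone and SPARC in MDA-MB-231 alone. The direction split of this test over all genes moved with scaling, with 61.2% of calls higher under TMM, 52.7% under RLE and 43.9% under upper quartile scaling.

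The lines also differed at either treatment. With YES1i, FBN1 and THBS1 were higher and FN1, LOXL2, TNC, SPARC and TGFBI lower in MDA-MB-231 than in SUM159, which is 7 of 8 genes where 79.5% of all genes were called, 41% higher and 38.5% lower. With DMSO, LOX, FBN1 and THBS1 were higher and FN1, TNC, SPARC and TGFBI lower, again 7 of 8, where 76.6% of all genes were called, 37.8% higher and 38.7% lower. The largest of these differences was SPARC, 2247-fold lower in MDA-MB-231 with YES1i and 787-fold lower with DMSO. On the MDA-MB-231 side these folds rest on 9 to 11 reads per YES1i library and 27 to 37 reads per DMSO library. TGFBI was 51.4-fold lower with YES1i and 30.1-fold lower with DMSO, and TNC was 29.2-fold lower with YES1i and 11.6-fold lower with DMSO. FN1 was 2.76-fold lower in MDA-MB-231 with YES1i and 9.21-fold lower with DMSO. LOX with YES1i did not differ beyond its spread, at -0.0030 with a 95% interval from -0.12 to 0.12 (edgeR adjusted p = 0.963), and was 1.86-fold higher in MDA-MB-231 with DMSO. LOXL2 was lower by a log2 fold change of -0.52 with YES1i (edgeR adjusted p = 2.69e-08), and with DMSO the value was -0.024 with a 95% interval from -0.15 to 0.11 (edgeR adjusted p = 0.741). THBS1 had the smallest called differences, at 0.12 with YES1i (edgeR adjusted p = 0.0203) and 0.21 with DMSO (edgeR adjusted p = 2.04e-04). The YES1i value of THBS1 lost its call without MDA-MB-231 YES1i replicate 3, at 0.11 (edgeR adjusted p = 0.0527), and under RLE scaling, at 0.083 (edgeR adjusted p = 0.103). FBN1 was 2.13-fold higher in MDA-MB-231 with YES1i and 1.92-fold higher with DMSO.

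Relatives and partners of the 8 genes were counted in 11 lists. They hold 92 tested genes besides the 8, of which 40 rose and 17 fell with YES1i in MDA-MB-231, or 62% called against 48.9% of all genes, with a median log2 fold change of 0.20. In SUM159, 43 rose and 19 fell, or 67.4% called against 51.6% of all genes, with a median of 0.25. The counts per list below stand beside 26.8% of all tested genes higher and 22.1% lower in MDA-MB-231. For SUM159 these shares were 25.1% higher and 26.5% lower.

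Close relatives of a gene did not always move with it. In the LOX family, the other 3 tested genes had 0 rises in either line. LOXL1 averaged 8.68 ± 0.693 CPM with YES1i and 15.0 ± 0.948 CPM with DMSO in MDA-MB-231 (log2 fold change -0.79, standard error 0.10, edgeR's adjusted p = 7.47e-08). LOXL3 averaged 5.40 ± 0.725 CPM with YES1i and 8.59 ± 1.03 CPM with DMSO in SUM159 (-0.67, standard error 0.14, edgeR's adjusted p = 2.12e-04). LOXL4 was not called in either line, averaging 169 CPM with YES1i and 175 CPM with DMSO in MDA-MB-231, and 0.328 CPM in both groups of SUM159. Among thrombospondins, THBS3 averaged 15.2 ± 1.97 CPM with YES1i and 5.24 ± 0.206 CPM with DMSO in MDA-MB-231, and 16.4 ± 0.634 CPM with YES1i and 9.03 ± 0.511 CPM with DMSO in SUM159. It rose where THBS1 fell, by 1.54 in MDA-MB-231 and 0.85 in SUM159 on the log2 scale. The tenascin TNXB rose by 1.44 in MDA-MB-231 and by 1.77 in SUM159, while TNC fell in both lines. LOXL1, LOXL3, THBS3 and TNXB each overlap a gene with at least 10% of their count, so that their values are uncertain.

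Of the 5 other tested genes of the SPARC family, 3 rose and 1 fell in MDA-MB-231, and 4 rose and 1 fell in SUM159. The rises in MDA-MB-231 were all at low levels, with YES1i means of 2.18 CPM for SPOCK1, 1.36 for SPOCK2 and 4.40 for SPOCK3. In SUM159, SPOCK2 at 0.396 CPM and SPOCK3 at 1.22 CPM with YES1i were low as well. SPOCK1, a proteoglycan of this family, averaged 298 ± 21.7 CPM with YES1i and 132 ± 16.3 CPM with DMSO in SUM159 (log2 fold change 1.17, standard error 0.08, edgeR's adjusted p = 5.53e-12). FSTL1 fell in MDA-MB-231, to 213 ± 8.94 CPM with YES1i against 356 ± 16.1 CPM with DMSO (-0.74, standard error 0.05, edgeR's adjusted p = 3.66e-13). It rose in SUM159, to 765 ± 27.2 CPM with YES1i against 622 ± 31.8 CPM with DMSO (0.30, edgeR's adjusted p = 9.31e-06), and the change in MDA-MB-231 minus that in SUM159 was -1.04 (edgeR's adjusted p = 1.77e-12). SMOC1, with an overlapping pseudogene, was lower in SUM159, at -0.20 (edgeR adjusted p = 0.0263), a call that RLE and upper quartile scaling and DESeq2 did not give. In the CCN family of matricellular proteins, 2 genes rose and 2 fell in MDA-MB-231, and 3 rose and 1 fell in SUM159. CTGF fell in both lines, to 112 ± 3.69 CPM with YES1i against 231 ± 5.99 CPM with DMSO in MDA-MB-231 and to 62.9 ± 5.79 CPM with YES1i against 111 ± 7.29 CPM with DMSO in SUM159. Those changes were -1.04 in MDA-MB-231 (standard error 0.06, edgeR's adjusted p = 3.50e-15) and -0.82 in SUM159 (standard error 0.06, edgeR's adjusted p = 1.90e-12). WISP2 rose in SUM159, to 204 ± 28.2 CPM with YES1i against 91.5 ± 6.64 CPM with DMSO (1.16, standard error 0.08). It also rose in MDA-MB-231, by 1.61 (standard error 0.25), at a mean of 2.13 CPM with YES1i. NOV rose by 0.75 in MDA-MB-231 (standard error 0.13, edgeR's adjusted p = 2.70e-05) and by 0.96 in SUM159 (standard error 0.12, edgeR's adjusted p = 8.63e-08).

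Among genes of fibrillin microfibrils and elastic fibres, 7 rose and 2 fell of 17 in MDA-MB-231, with a median of 0.24, and 10 rose and 2 fell in SUM159, with a median of 0.47. LTBP3, which tethers latent TGF-beta to microfibrils, averaged 187 ± 13.3 CPM with YES1i and 52.2 ± 3.35 CPM with DMSO in MDA-MB-231 (log2 fold change 1.84, standard error 0.08, edgeR's adjusted p = 2.08e-15). It also rose in SUM159, by 0.69 (standard error 0.07, edgeR's adjusted p = 4.51e-08). Its relative LTBP1 rose by 1.58 in MDA-MB-231 (standard error 0.07) and by 1.39 in SUM159 (standard error 0.10). LTBP2 fell in SUM159, to 10.2 ± 0.672 CPM with YES1i against 22.8 ± 3.20 CPM with DMSO (-1.14, edgeR's adjusted p = 8.79e-12). LTBP2 rose in MDA-MB-231, to 74.9 ± 2.49 CPM with YES1i against 42.5 ± 1.36 CPM with DMSO (0.82, edgeR's adjusted p = 2.19e-10), a difference between the changes of 1.96 (edgeR's adjusted p = 7.65e-14). EFEMP1, a fibulin, fell in MDA-MB-231, to 57.5 ± 4.75 CPM with YES1i against 160 ± 4.69 CPM with DMSO (-1.47, standard error 0.07, edgeR's adjusted p = 4.04e-15). It also fell in SUM159 (-0.56, standard error 0.07, edgeR's adjusted p = 1.62e-07).

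Of 9 tested receptors of these proteins, 8 rose and 0 fell in MDA-MB-231, with a median of 0.48, and 6 rose and 2 fell in SUM159, with a median of 0.27. The receptor not called in MDA-MB-231 was SDC4, a syndecan, at a log2 fold change of 0.071 (standard error 0.067, edgeR's adjusted p = 0.407). The integrin ITGB3 averaged 20.6 ± 1.04 CPM with YES1i and 7.02 ± 0.992 CPM with DMSO in MDA-MB-231 (log2 fold change 1.56, standard error 0.09, edgeR's adjusted p = 3.10e-14). LRP1, which takes up thrombospondin complexes, averaged 623 ± 56.6 CPM with YES1i and 222 ± 17.0 CPM with DMSO in SUM159 (1.49, standard error 0.07, edgeR's adjusted p = 1.53e-15), though it overlaps STAT6. ITGB5 fell in SUM159 by 0.43 on the log2 scale (edgeR's adjusted p = 5.61e-05) and rose in MDA-MB-231 by 0.56 (edgeR's adjusted p = 1.08e-06), with a difference between the changes of 0.98 (edgeR's adjusted p = 1.40e-07).

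Among laminins and basement membrane genes, 6 rose and 2 fell of 14 in MDA-MB-231, and 5 rose and 3 fell in SUM159. LAMA3 rose by 0.94 in MDA-MB-231 (standard error 0.06) and by 0.21 in SUM159 (standard error 0.06). LAMB3 was lower in both lines, at -0.40 in MDA-MB-231 (standard error 0.08) and -0.40 in SUM159 (standard error 0.10). LAMB2 rose by 0.82 in MDA-MB-231 (standard error 0.07) and by 0.71 in SUM159 (standard error 0.07). Of 7 matrix proteoglycans, 2 rose and 1 fell in each line, and in SUM159 the rise of DCN was 1.12 (standard error 0.13) and the fall of VCAN was -0.93 (standard error 0.08). None of the proteoglycans called in MDA-MB-231 reached a mean of 5 CPM in that line.

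The enzymes and chaperones that make and process collagen split both ways, with 3 higher and 4 lower of 13 in MDA-MB-231 and 5 higher and 3 lower in SUM159. The proteinase BMP1, which processes collagen and LOX precursors, rose by 0.30 in MDA-MB-231 (standard error 0.05) and the lysyl hydroxylase PLOD2 fell there by 0.35 on the log2 scale (standard error 0.07). In SUM159 the prolyl hydroxylase subunit P4HA1 rose by 0.75 (standard error 0.06), and the transglutaminase TGM2, which overlaps another gene, fell by 0.81 on the log2 scale (standard error 0.06). Of 14 genes of TGF-beta signalling, 7 rose and 4 fell in MDA-MB-231, and 5 rose and 4 fell in SUM159. TGFB1 rose by 0.63 (standard error 0.05) and the SMAD corepressor SKIL fell by 0.68 on the log2 scale (standard error 0.08) in MDA-MB-231, where TGFB1 overlaps a more abundant gene. TGFB1 fell in SUM159, by 0.26 on the log2 scale (edgeR's adjusted p = 1.03e-04), and the difference between its changes was 0.89 (edgeR's adjusted p = 8.24e-11). In SUM159 the receptor TGFBR1 rose by 0.73 (standard error 0.08).

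The genes most like each of the 8 in pattern were taken from 10877 protein-coding genes by Pearson's r of log2 CPM over the 16 libraries, which share the difference between lines. AHNAK2 (r = 0.993) and TARBP1 (r = 0.992) were nearest to FN1, and TOM1L2 (r = 0.993) and GPR107 (r = 0.992) to FBN1. SRD5A1 (r = 0.983) and VEGFA (r = 0.970) were nearest to LOX, and the collagen chaperone SERPINH1 (r = 0.947) was near LOXL2. For THBS1 they were LMNB1 (r = 0.994) and CHAF1B (r = 0.992), and for TNC ARSJ and SCARA3 (r = 0.997 each). PCOLCE2 and NALCN (r = 0.998 each) were nearest to SPARC, and HTRA3 and CCNB1IP1 (r = 0.998 each) to TGFBI. These values are a description. With the values centred within each line, none of these genes kept its place. The gene nearest to LOX was then TGFBI (r = 0.991), followed by TIMP3, which was also nearest to TGFBI (r = 0.996). Centring keeps the change with YES1i in each line, so genes with like changes have a high r. Shared regulation was not tested.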

How the data were processed

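Read counts per gene, deposited by the authors in a single table with gene lengths and hg38 coordinates, fill 1 column per library. The submitters' processing notes list HISAT2 2.0.5, featureCounts 1.5.0-p3 and hg38, without roles or order. Per the labels' protocols, messenger RNA was taken with poly-T beads and primed with random hexamers, with or without marking of strand. How counting treated strand and overlapping genes, and the annotation, are not given in these sources, so that overlapping genes are uncertain. All 58735 gene IDs, starts and ends equal those of GENCODE 29.

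The deposited counts went into edgeR 4.0.16 under R 4.3.3 and limma 3.58.1. Genes were filtered by filterByExpr on 4 groups and scaled by TMM, and 1 robust quasi-likelihood fit held all 16 libraries with a mean per group. Benjamini-Hochberg adjustment ran over 17647 genes, and calls needed an adjusted p under 0.05. Standard errors come from the F statistic, CPM from TMM-scaled library sizes and TPM from the deposited gene lengths. Floors cover counting error, and p-values the spread between libraries. No libraries of a group agreed within sampling noise in chi-square comparisons of their counts, so none was taken for a library deposited again. That comparison does not show that they come from separate cultures.

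The 8 genes and the lists were chosen with earlier results of these data known. Also named were, for each list and line, the most changed called gene in each direction at 5 CPM or more, the 2 genes most alike in pattern to each of the 8, and YES1. Some genes that this rule names are not reported here. LOXL4, SDC4 and TIMP3 were named after their values were seen. Alternatives tried were RLE scaling, scaling by upper quartiles, DESeq2 1.42.0, limma-voom, 2 other count filters, fits of the compared groups alone, the replicate number as a block, an adjusted p under 0.01, no mitochondrial genes and each library left out in turn. The fit was tested on simulated data, with changes put into a small set of genes in MDA-MB-231 alone. Far more genes were called in the real data, so that test does not check the calls given here.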

Additional observations from a re-analysis of the deposited data

Results flagged for a closer look

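The response to YES1i differed between MDA-MB-231 and SUM159, MDA-MB-231 minus SUM159, for 6 of the 8 genes in the edgeR test of the difference. That test called 31.1% of all tested genes, 19.1% higher and 12.1% lower, a split that moved with scaling. The difference was 1.74 on the log2 scale for FN1, which rose in both lines. It was -0.90 for LOX and -0.77 for TGFBI, which also rose in both, and -0.49 for LOXL2, which was called in SUM159 alone. It was -1.33 for TNC, which fell in both lines, and -1.51 for SPARC, whose level in MDA-MB-231 rests on 9 to 11 reads per YES1i library.

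One library stood apart in the level of 1 of the 8 genes. TGFBI in SUM159 with YES1i was at 9389 CPM in replicate 1 and at 8731 to 8787 CPM in the other 3, a gap of 0.914 of the group's range and past Dixon's 95% critical value. Chance flags about 1 in 20 groups, and 1 of the 32 groups checked passed. Over all tested genes, SUM159 YES1i replicate 2 differed more from its group. Its chi-square per degree of freedom was 12.3 to 23.8, against 3.97 to 6.51 among the other 3. That library had the lowest YES1i level in SUM159 of LOXL2 (524.8 CPM), TNC (534.3 CPM) and FBN1 (28.30 CPM). SUM159 DMSO replicate 1 reached 16.5 against replicate 2 and 17.4 against replicate 3.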

How the results depend on the processing

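No value of the 8 genes that was called changed direction under any alternative run. Each comparison was rerun without each library, also without libraries of groups that it does not compare. Those enter it only through the filter, the scaling and the shared spread. Values that were not called and stayed so were counted as held. With 1 of the 16 libraries left out in turn, 639 values of the 8 genes over 5 comparisons held in this sense and 1 did not. That was THBS1 in MDA-MB-231 against SUM159 with YES1i, which ranged from 0.11 to 0.15 and fell short without MDA-MB-231 YES1i replicate 3 (0.11, edgeR adjusted p = 0.0527), so that the count of genes higher ranged from 1 to 2. That same value also lost its call under RLE scaling (0.083, adjusted p = 0.103), upper quartile scaling (0.010, adjusted p = 0.832), DESeq2 (0.084, adjusted p = 0.0540), no filter on low counts (0.076, adjusted p = 0.247), an edgeR fit of those groups alone (0.054, adjusted p = 0.381) and an adjusted p under 0.01 (0.12), each leaving 1 gene higher in place of 2. Of the other alternatives, 381 values kept their call or lack of one, 7 lost a call and 4 gained one. FBN1 in SUM159 (0.22, edgeR adjusted p = 0.0117) was lost at an adjusted p under 0.01. Gained were LOXL2 in MDA-MB-231 in an edgeR fit of that line alone (-0.11, adjusted p = 0.0157), SPARC in SUM159 under edgeR with upper quartile scaling (0.15, adjusted p = 0.00557) and the THBS1 difference between lines under edgeR with upper quartile scaling (-0.20, adjusted p = 0.0147) and DESeq2 (-0.14, adjusted p = 0.0451). The cause was not tested.

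Over all genes, an adjusted p under 0.01 left 1372 genes lower in the difference between lines, against 2127. Of the 2 nearest genes per member, Spearman's rho kept 0, except 1 for LOXL2, and centring within lines kept 0. Replicate numbers did not pair the libraries, since the correlation of same-numbered libraries ran from -0.107 to 0.0116. With the replicate number as a block, 4544 genes were higher and 3768 lower in MDA-MB-231, 4238 and 4510 in SUM159, and no call of the 8 genes changed, with FN1 at 2.09 in MDA-MB-231. Depth limits SPARC in MDA-MB-231, where 3 counts stand for up to 0.183 CPM.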
